A study of Apis mellifera with 4 samples.

Results

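The subject is 41 of the 49 cytochrome P450 genes on a honey bee (Apis mellifera) antennal array that measured 313 genes in all. Members were taken by gene name: every name that starts AmCyp, except 8 names listed apart. Those 8 are the P450s that passed the test for a difference between the sexes in an earlier reading of the same arrays, so that no member passes it here follows from the choice and is not a finding. Nearest to that line on its far side stood AmCyp006AS05, set aside with a log2 ratio of 0.61 ± 0.15 and an adjusted p of 0.0443 (limma). AmCyp004G11 stood nearest on the members' side, with -0.63 ± 0.20 and an adjusted p of 0.114.

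Each of 4 two-colour arrays set 1 pool of drone (male) antennae against 1 pool of worker (female) antennae. Whole antennae came from bees caught at the hive entrance, 50 sets to a pool, mature drones against workers, and the design text calls each pool an independent collection. The labels give neither strain nor exact age. Every log2 ratio is drone over worker, so a value above 0 means more signal in drone. Values after ± are standard errors from limma (n = 4 arrays). In pooled whole antennae, fewer cells of a type and less RNA per cell cannot be told apart.

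Cytochrome P450s are haem enzymes that insert oxygen into small hydrophobic molecules. Insects use them for the making and breaking of hormones, for cuticular lipids, and for clearing plant compounds and pesticides. In antennae, members of the superfamily are discussed as odorant-degrading enzymes, which remove odour molecules after they have acted on receptors. Family and subfamily are carried by the name, so AmCyp006AS03 belongs to family CYP6, subfamily AS, a subfamily that is expanded in bees. The 41 members comprise 3 of CYP4, 14 of CYP6AS, 4 other CYP6, 3 with numbers from 15 to 49, 15 with numbers above 300, and 2 without a family number.

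Facts of the whole array set the scale. Over all 313 genes 37 were called at an adjusted p under 0.05, which is 11.8%, with 14 higher in drone (4.47%) and 23 higher in worker (7.35%). Dyes were read from the dye entry of each channel: drone carried Cy3 on arrays 1 and 3, and Cy5 on the other two. The written protocols contradict these entries for arrays 2, 3 and 4. With the protocols' dyes 0 genes of the array were called (limma), 3 members had an unadjusted p under 0.05, and the ratios of 3 arrays change sign, so every direction given here rests on the dye entries. The antennal markers AmOr002, AmOBP01, AmOBP02 and AmSNMP were above the negative controls on 4 of 4 arrays in both sexes. Of 5 opsins, which mark eye tissue, none was above them on more than 1 array in drone or 2 in worker. Arrays 3 and 4 lie on 1 slide.

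Detection splits the members. A gene counts as detected where its mean signal above local background passes a threshold set by negative control spots (their mean plus 2 SD) on at least 3 of 4 arrays. The controls were 7 of the 8 kinds printed, without oligo 4. With all 8 kinds the drone threshold on array 1 was 7021 in place of 677, and 3 members were detected in drone and 1 in worker, so each statement on detection below holds for the 7 kinds. By this measure 12 of 41 members were detected in drone and 14 in worker, against 28.8% and 31% of all genes. The same 12 were detected in both sexes, which is 29.3% of the members and 26.2% of all genes. On no array and in neither sex were 15 members above the controls, or 36.6%, against 24.6% of all genes. The share detected in both sexes is thus near that of the array as a whole. Of the 8 P450s set aside, 6 were detected in both sexes and 0 were above the controls on no array. Over all 49 P450s, 36.7% were detected in both sexes and 30.6% were never above the controls. The choice of members thus lowers the former share and raises the latter.

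Between these ends lie 14 members. Among them 4, AmCyp004AV1, AmCyp004AZ1, AmCyp006AS01 and AmCyp006AS15, were above the controls in both sexes but on fewer arrays. The other 10 were above them on no array in one sex, as were 90 of all 313 genes. For 9 of the 10 members the worker signal was the one that passed. Its detections fell on array 2 in 4 cases, on array 4 in 8 and on arrays 1 and 3 in 0. The array as a whole had the same pattern, with worker above the controls for 91, 186, 90 and 195 genes on arrays 1 to 4. Worker was labelled with Cy3 on arrays 2 and 4, and the part of the dye in these detections was not tested. A lower bound on the fold was under 1 for all 10, with 0.901 the highest, so no fold is given for them or for the 15 never detected.

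**Figure D1:**
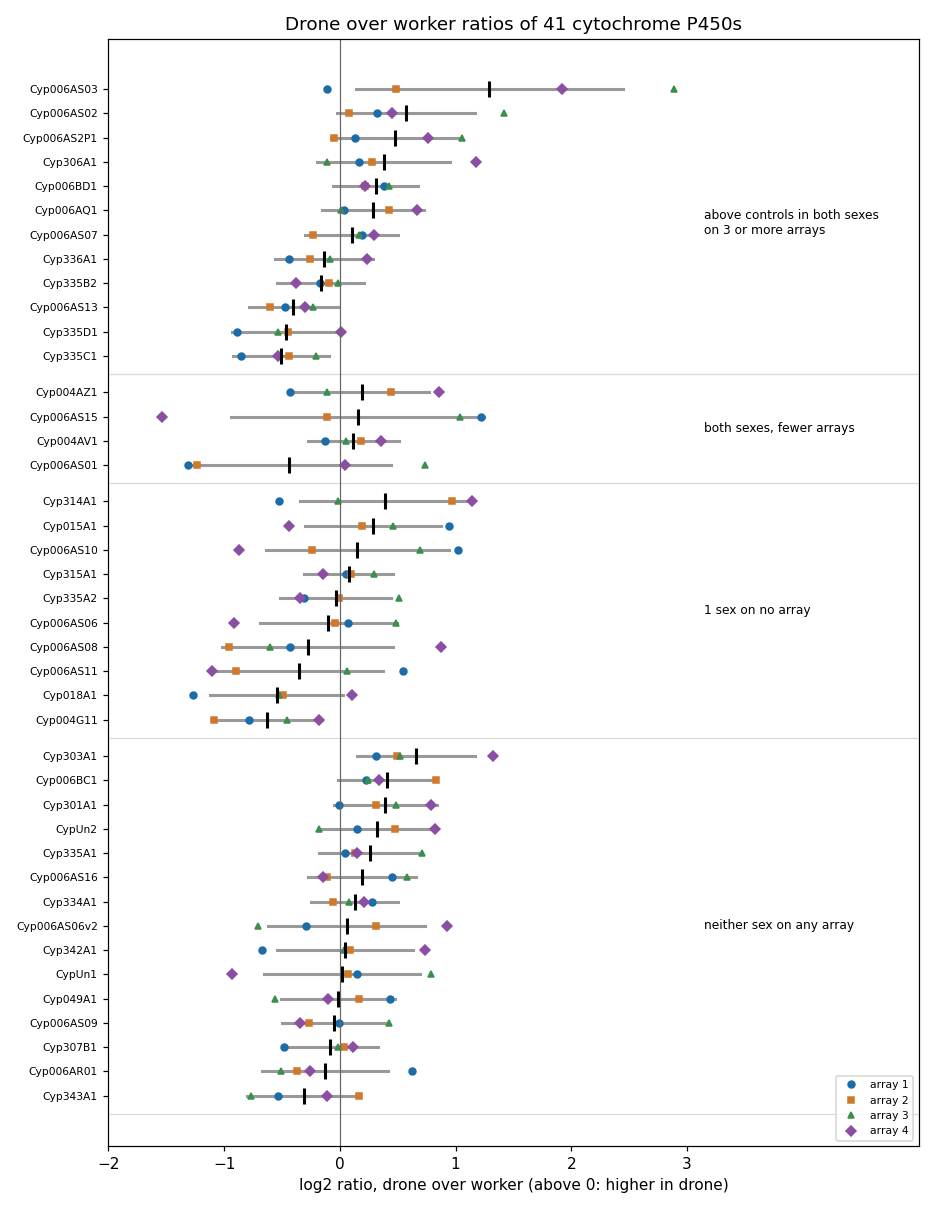
Log2 ratio of drone over worker (horizontal axis) for the 41 P450s, grouped by where their signal was above the negative controls and ordered by mean; coloured symbols are the 4 arrays, black ticks the mean and grey bars limma's 95% interval. The mean of AmCyp006AS03 is 1.29, the other means lie between -0.63 and 0.66, and the arrays of a dim gene often fall on both sides of 0.

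Loess centres each array, and the rule removed the P450s with a called difference, so the members' closeness to 0 is a description only. Their means ran from -0.63 to 1.29 with a median of 0.08, beside a median of 0.01 over all genes. Other background corrections and scalings put the members' median between -0.15 and 0.19. Above 0 were 24 members and below it 17. The sign was the same on 4 of 4 arrays for 10 of 41 members, against 32.6% of all genes. All 8 P450s set aside have the same sign on every array, so the choice of members lowers this share. It held for 6 members higher in drone, against 15% of all genes, and for 4 higher in worker, against 17.6%. The 95% interval left out 0 for 6 of 41 members, against 21.7% of all genes, a comparison that the choice of members itself pulls down. It lay wholly within 1 log2 unit of 0, that is within 2-fold either way, for 30 of 41, against 73.2% of all genes. Of the 8 set aside 1 had so narrow an interval, so the choice raises this share. The count was 17 under plain background subtraction, 13 under median centring, 8 without normalization and 0 under housekeeping centring, and therefore sets no firm limit. Among the 12 detected members it did so for 9, of which AmCyp006AQ1 is saturated on most arrays and its ratio is not bounded by the interval. The other 3, AmCyp006AS02, AmCyp006AS03 and AmCyp006AS2P1, are all CYP6AS, and their intervals reach past a 2-fold excess in drone. Among the 15 never detected, 14 had such a narrow interval too, where it describes signal at the level of the controls and sets no limit on the RNA.

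The CYP6AS genes, enzymes of the clan that handles foreign compounds, held the widest spread. Honey bee CYP6AS1, CYP6AS3 and CYP6AS10 are known to metabolise quercetin, a flavonol of pollen and nectar. AmCyp006AS03 gave drone signals of 968, 258, 10279 and 2397 scanner units on arrays 1 to 4, against 763, 241, 1810 and 587 in worker. Both sexes were above the controls on every array, and after normalization the log2 ratios were -0.11, 0.48, 2.88 and 1.92. Drone was thus clearly higher on the 2 arrays of slide 7 and near worker on the others. The mean was a 2.45-fold excess in drone (log2 1.29 ± 0.48, 95% interval 0.14 to 2.45), with an adjusted p of 0.173 (limma), and its SD over arrays of 1.36 was the largest of all members. It passed with a dye coefficient in the limma fit (adjusted p = 0.0260) and, in a fit added after seeing the data, with slide 7 as a term (0.0234), while its adjusted p reached 0.903 in another setting. Duplicate spots of the gene differed far less, with an SD of 0.12 for a single spot.

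AmCyp006AS01 shared that division between slides. Its drone signals were 250, 56, 3416 and 722 on arrays 1 to 4, against 356, 338, 2794 and 900 in worker, and 2 arrays in drone and 3 in worker passed the controls. The log2 ratios were -1.32, -1.23, 0.73 and 0.04, so worker was higher on arrays 1 and 2 and drone on array 3. They average to -0.44 ± 0.37 (adjusted p = 0.599, limma), a mean that describes neither pair of arrays. AmCyp006AS10, the other member with known quercetin activity, never passed the controls in drone and did so on 1 array in worker, with log2 ratios of 1.02, -0.24, 0.70 and -0.87. The ratio was above 0 on the arrays with drone in Cy3 and below 0 on the others.

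**Figure D2:**
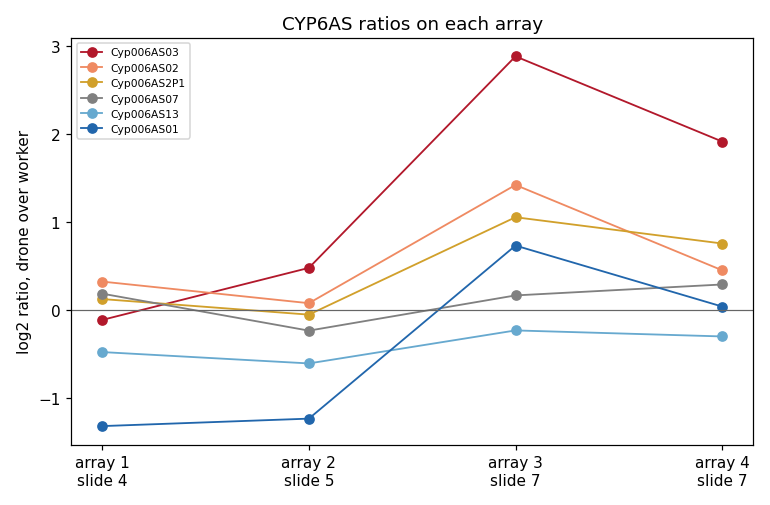
Log2 ratio of drone over worker (vertical axis) on each array for 6 CYP6AS genes above the negative controls in both sexes on some arrays, with the slide of each array below it. AmCyp006AS03 and AmCyp006AS01 stand higher on both arrays of slide 7 than on arrays 1 and 2, while AmCyp006AS13 stays below 0 on 4 of 4 arrays.

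The slide difference was put to a test across all genes. By the dye entries, arrays 1 and 2 and the 2 arrays of slide 7 each hold 1 array of each dye orientation. Only a dye effect of equal size on both arrays of a pair would cancel in its mean, and this was not tested. AmCyp006AS03 averaged 2.40 on slide 7 and 0.19 on arrays 1 and 2, a difference of 2.21 (95% interval 1.01 to 3.42). AmCyp006AS01 averaged 0.39 on slide 7 and -1.27 on arrays 1 and 2, a difference of 1.66 (0.64 to 2.68). Neither passed over 313 genes, with an adjusted p of 0.963 for both (limma). No gene of the array was called (0%), and at an unadjusted p under 0.05 there were 2 of the 41 members beside 1.6% of all genes. The slide, the pools on it and their bees cannot be told apart.

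AmCyp006AS02 and AmCyp006AS2P1 were bright in both sexes and leaned to drone mainly on slide 7. AmCyp006AS02 had drone signals of 7606, 1750, 10328 and 6995, against 4928, 1848, 4839 and 2460 in worker, and log2 ratios of 0.32, 0.08, 1.42 and 0.45 on arrays 1 to 4. All 4 lie above 0, and array 3 is apart from the others. AmCyp006AS2P1 had drone signals of 4995, 5116, 23920 and 8182, against 3764, 5250, 13705 and 2312 in worker, with log2 ratios of 0.13, -0.05, 1.06 and 0.76. Their means were 0.57 ± 0.25 and 0.47 ± 0.23, with adjusted p of 0.246 and 0.306 (limma). The drone channel of AmCyp006AS2P1 held saturated pixels on 1 array.

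Other detected CYP6AS genes were steadier. AmCyp006AS13 had drone signals of 854, 846, 1520 and 661, against 889, 1609, 2514 and 1012 in worker. Its log2 ratios were -0.48, -0.60, -0.23 and -0.30, with a mean of -0.40 ± 0.16, a 1.32-fold excess in worker (adjusted p = 0.198, limma). All 4 arrays thus leaned the same way. AmCyp006AS07 had drone signals of 1561, 716, 2920 and 1016, against 1068, 902, 3590 and 890 in worker. Its log2 ratios of 0.19, -0.23, 0.17 and 0.29 gave a mean of 0.10 ± 0.17, and the 95% interval from -0.30 to 0.51 reaches a 1.42-fold excess in drone. Neither gene passed the test, and their difference was not tested. Whether the probes of these related genes also bind each other's RNA was not tested. AmCyp006AS13 and AmCyp006AS11 lie on 1 linkage group in RefSeq's Amel_HAv3.1 annotation, with 17 protein-coding genes between them, and AmCyp006AS05, which is set aside, lies there 5 protein-coding genes from AmCyp006AS13. Only 6 of the 41 members could be matched to a RefSeq entry by name.

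Of the 14 CYP6AS members, 12 had a higher ratio where drone was in Cy3, with a median difference of -0.41 (Cy5 minus Cy3), beside 144 of 313 genes and 0.05. The 12 include all 5 detected in both sexes, and the exceptions were AmCyp006AS06v2 and AmCyp006AS08. AmCyp006AS15 had log2 ratios of 1.22, -0.11, 1.04 and -1.54, with a mean of 1.13 where drone was in Cy3 and -0.83 where it was in Cy5. It was above the controls on 1 array in each sex, array 1 in drone and array 4 in worker, both Cy3. AmCyp006AS11 had 0.54, -0.89, 0.06 and -1.11, with 2 arrays above the controls in worker and 0 in drone. AmCyp006AS06, AmCyp006AS08, AmCyp006AS09, AmCyp006AS16 and the separate probe AmCyp006AS06v2 passed the controls on no more than 1 array in any sex, with means from -0.28 to 0.19.

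Outside the AS subfamily, CYP6 held 4 members. AmCyp006AQ1 was near or at the scanner's ceiling: drone signals were 65324, 20502, 65198 and 65402, against 65420, 14544, 65335 and 23124 in worker. Saturated pixels were present on 3 arrays in drone and 2 in worker, so its ratios of 0.03, 0.42, 0.01 and 0.67 mean little except on array 2, where no spot was saturated and the log2 ratio was 0.42. AmCyp006BD1 had drone signals of 1984, 409, 10480 and 1382, against 1241, 452, 9623 and 1059 in worker. Its log2 ratios of 0.39, 0.22, 0.43 and 0.22 all lay above 0, with the smallest SD over arrays of any member, 0.11. That gave a 1.24-fold excess in drone (log2 0.31 ± 0.15, 95% interval -0.06 to 0.68, adjusted p = 0.306, limma). AmCyp006BC1 and AmCyp006AR01 never passed the controls. The log2 ratios of AmCyp006BC1 were 0.23, 0.83, 0.24 and 0.34, with a mean of 0.41, and AmCyp006AR01 averaged -0.13.

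**Figure D3:**
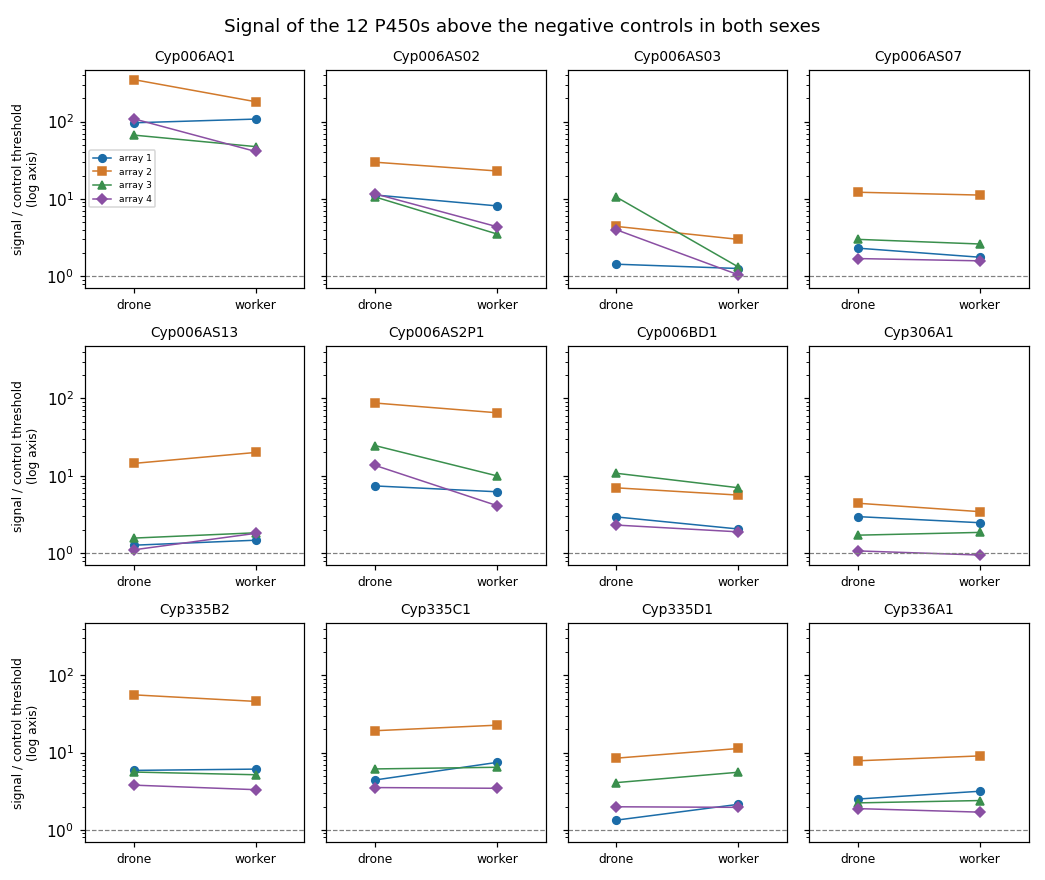
Signal above local background divided by the negative control threshold of the same channel (log axis), in drone and worker on each array, for the 12 P450s detected in both sexes; the dashed line is the threshold, and values are before normalization. Lines are near level for AmCyp335B2, while for AmCyp006AS03 drone stands well above worker on arrays 3 and 4; levels are not comparable between genes.

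Among the CYP335 names, 2 worker-biased genes are set aside and 5 remain, of which 3 were detected in both sexes. Their function is not described here, since no role is known with certainty. AmCyp335C1 had drone signals of 2992, 1124, 5983 and 2119, against 4526, 1818, 8883 and 1944 in worker. Its log2 ratios of -0.85, -0.44, -0.21 and -0.53 were all below 0, a 1.42-fold excess in worker (log2 -0.51 ± 0.17, 95% interval -0.92 to -0.09, adjusted p = 0.147, limma). AmCyp335D1 had drone signals of 904, 496, 3981 and 1196, against 1298, 908, 7658 and 1102 in worker, and log2 ratios of -0.89, -0.45, -0.54 and 0.01. Worker was higher on 3 arrays and level with drone on array 4, for a mean of -0.47 ± 0.19 (adjusted p = 0.227, limma).

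AmCyp335B2, which shares a subfamily with both set-aside genes, had ratios nearer to 0. Its drone signals were 3980, 3275, 5455 and 2278, against 3706, 3694, 7106 and 1865 in worker. Log2 ratios of -0.17, -0.10, -0.02 and -0.38 gave a mean of -0.17 ± 0.16, with an interval from -0.54 to 0.21 that reaches a 1.46-fold excess in worker. Its sign turned under median centring, at 0.15, and when centred on genes that are not odorant receptors, at 0.00034. The set-aside AmCyp335B1 and AmCyp335B3 had -1.13 ± 0.15 and -1.37 ± 0.23, values that chose them. AmCyp335A1 never passed the controls, and AmCyp335A2 did so on 1 array in worker only.

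AmCyp336A1 was the other detected member with a number above 300 outside the hormone enzymes. Its drone signals were 1694, 459, 2176 and 1132, against 1916, 728, 3295 and 955 in worker. The log2 ratios of -0.44, -0.26, -0.08 and 0.24 straddle 0, with a mean of -0.14 ± 0.18 and an interval from -0.56 to 0.29. The ends of that interval are a 1.48-fold excess in worker and a 1.22-fold excess in drone.

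Of 6 members named for steroid or juvenile hormone metabolism, 1 was detected in both sexes, beside 26.2% of all genes. AmCyp302A1 is set aside and was above the controls on 2 arrays in each sex. In insects CYP307, CYP306A1, CYP302A1, CYP315A1 and CYP314A1 act in the synthesis of the moulting hormone 20-hydroxyecdysone, CYP18A1 breaks ecdysteroids down, and CYP15A1 makes juvenile hormone by epoxidation. AmCyp306A1, named phantom in Drosophila, was the only one of these 6 members detected in both sexes. It had drone signals of 2003, 258, 1658 and 640, against 1498, 276, 2544 and 530 in worker, and log2 ratios of 0.16, 0.28, -0.11 and 1.18. Array 4 stood above the other 3, and the mean of 0.38 ± 0.24 had an adjusted p of 0.458 (limma).

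AmCyp018A1 never passed the controls in drone and did so on 2 arrays in worker. Drone signals were 263, 36, 432 and 158, against 370, 152, 658 and 596 in worker, and the log2 ratios were -1.27, -0.49, -0.53 and 0.10. Worker was higher on 3 of 4 arrays, with a mean of -0.55 ± 0.24 (adjusted p = 0.247, limma) that carries no fold because drone was never above the controls. Without array 4, the only array with a ratio above 0, the mean was -0.76 and the adjusted p 0.0463 (limma). In that setting 43 of all genes were called. Without array 1 the mean was -0.31 and the adjusted p 0.551, and over all settings its highest was 0.948 (limma). AmCyp314A1, named shade in Drosophila, passed the controls on 1 array in drone and 0 in worker, AmCyp315A1 and AmCyp015A1 on 0 in drone and 1 in worker, and AmCyp307B1 on none. The log2 ratios of AmCyp314A1, at -0.53, 0.97, -0.02 and 1.14, were high only where drone was in Cy5. For AmCyp015A1 they were 0.94, 0.19, 0.46 and -0.44, for AmCyp315A1 0.05, 0.10, 0.29 and -0.14, and for AmCyp307B1 -0.48, 0.03, -0.01 and 0.12. A signal at the level of the controls does not show that the RNA is absent.

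A pair of members has known roles in cuticle and sense organs of Drosophila. CYP303A1 is needed there for mechanosensory bristles, and CYP301A1 for the adult cuticle. AmCyp303A1 had drone signals of 454, 44, 568 and 544, against 151, 58, 265 and 486 in worker, none of them above the controls. Its log2 ratios of 0.31, 0.49, 0.52 and 1.32 were above 0 on 4 of 4 arrays (adjusted p = 0.116, limma), a ratio of signals at the level of the controls. With a dye coefficient the adjusted p was 0.0390 (limma), and over all settings its highest was 0.998. AmCyp301A1 had -0.01, 0.31, 0.48 and 0.78 and was likewise never above the controls. No fold is given for either.

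AmCyp004G11 belongs to CYP4G, insect enzymes that make cuticular hydrocarbons, the waxes that bees also use in nestmate recognition. Drone signals were 428, 2, 398 and 134, against 446, 156, 460 and 641 in worker. Worker passed the controls on arrays 2 and 4, and drone on none. The log2 ratios of -0.78, -1.09, -0.46 and -0.18 were all below 0, with a mean of -0.63 ± 0.20 and a 95% interval from -1.11 to -0.15. In the authors' deposited table, turned to drone over worker, the values were -0.81, -3.00, -0.44 and -0.36. The largest gap between the sources was on array 2, where the drone signal was 2 units above background, and its cause was not tested. With all 4 arrays the adjusted p was 0.114 (limma). It was 0.0320 without array 4, 0.323 without array 1 and 0.499 without array 2, where the mean was -0.47 (limma). No fold is given, because drone was never above the controls.

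The other CYP4 members and the unplaced names add little difference. AmCyp004AV1 had log2 ratios of -0.13, 0.18, 0.05 and 0.36, and AmCyp004AZ1 -0.43, 0.45, -0.11 and 0.85, higher where drone was in Cy5. AmCyp049A1, AmCyp334A1, AmCyp342A1, AmCyp343A1, AmCypUn1 and AmCypUn2 were never above the controls, with means from -0.31 to 0.32. The highest of these, AmCypUn2, had log2 ratios of 0.15, 0.48, -0.18 and 0.83. For AmCyp343A1 the scanner file marked 6 spots as not found, the most of any member, and its signal reached at most 0.213 of the threshold.

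Ratios also differed between dye orientations, each of which has 2 arrays with pools of their own. The difference between arrays with drone in Cy5 and arrays with drone in Cy3 had a median size of 0.21 in the 12 detected members and 0.51 in the other 29, and 0.47 over all genes. It exceeded 1 log2 unit in 5 of 41 members, beside 48 of all 313 genes. None of the 5 was among the 12: AmCyp006AS15 at -1.96, AmCyp006AS10 at -1.42, AmCyp314A1 at 1.33, AmCyp006AS11 at -1.30 and AmCyp006AS06v2 at 1.11. In a fit with a dye coefficient, that coefficient passed for no member, with the smallest adjusted p of 0.0550 for AmCyp006AS15 (limma), beside 0.319% of all genes. At an unadjusted p under 0.05, the dye coefficient marked 6 of 41 members and 17.9% of all genes.

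**Figure D4:**
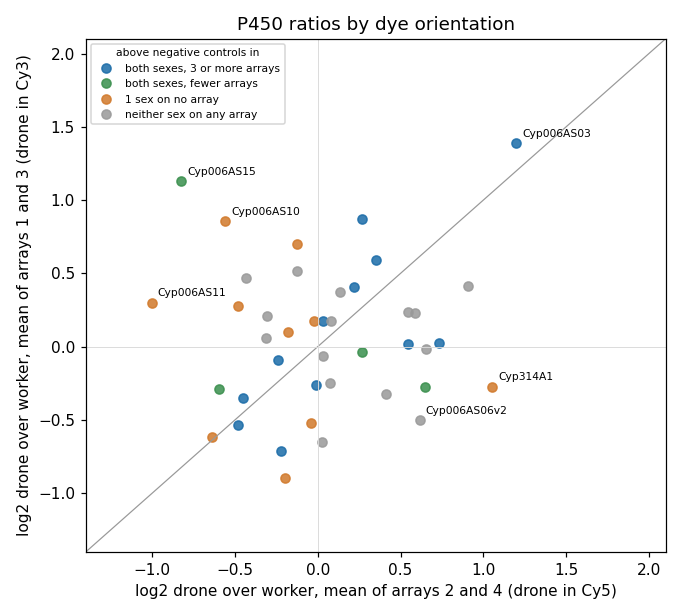
Mean log2 ratio of drone over worker on arrays with drone in Cy5 (horizontal axis) against arrays with drone in Cy3 (vertical axis), 1 point per P450, coloured by where the gene was above the negative controls; the diagonal marks equal values. Points far from the diagonal, such as AmCyp006AS15 at -0.83 and 1.13, belong mainly to genes not detected in both sexes.

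Correlations between single arrays are given as a description across genes that share pools and background. Over the 12 detected members, the 6 pairs of arrays correlated at 0.42 to 0.79. Over the other 29, the pairs of equal dye orientation correlated at 0.40 and 0.41, and the pairs of opposite orientation at -0.46 to 0.23. Over all genes of the array, the pairs of equal orientation correlated at 0.76 and 0.73, and those of opposite orientation at 0.39 to 0.78. Over the 41 members the median SD was 0.13 for a single spot and 0.43 over arrays.

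Other enzyme families of foreign-compound metabolism on the array are given for scale. The 7 glutathione S-transferases, which couple toxins to glutathione, had a median log2 ratio of 0.14, with 1 called in drone and 1 in worker. The 10 carboxylesterases, which cleave esters, had a median of 0.15, with 2 called in drone and 0 in worker. Detected in both sexes were 4 of the 7 and 4 of the 10.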

How the data were processed

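The authors deposited unnormalized intensities of foreground and local background per spot at 635 nm and 532 nm, per the file headers. A percent of saturated pixels per spot and a quality score (-75 for absent, -50 for not found) are also in the deposited files. A further table deposited by the authors holds log2 ratios with no stated normalization or direction. Set against the scanner values it ran as worker over drone (r after turning 0.91 to 0.98, column medians as deposited -0.02, -0.09, -0.06 and 0.08), and it served as an alternative. The scanner and its software are not given in the sources used here.

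Foreground medians were background-corrected by normexp (offset 50) and normalized by loess within arrays in limma 3.58.1 (R 4.3.3). Absent spots were dropped, and control spots had weight 0 in the loess curve. Ratios were averaged over the 2 spots of each gene, turned to drone over worker, and tested with lmFit and eBayes over 313 genes with Benjamini-Hochberg adjustment. Loess centres the ratios at each brightness, and the offset pulls dim ratios towards 0. Detection used 7 of 8 kinds of negative control, leaving out oligo 4. No fold is given where a sex passed the controls on no array and the bound was under 1. The fit was tested on simulated data. The number of arrays limits precision.

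Named with values from every array were members detected in both sexes, the 5 highest and 5 lowest means, the 3 largest SDs, members of the role lists, and the smallest adjusted p of each family group. Others were added after their values were seen. Members and lists were chosen with earlier results of these data known. Alternatives covered background, normalization, spot filters, dyes, array weights and each array left out.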

Additional observations from a re-analysis of the deposited data

Results flagged for a closer look

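AmCyp335A1 was marked because 1 array stands far from the other 3. Its log2 ratio of drone over worker was 0.71 on array 3, against 0.04, 0.13 and 0.15 on arrays 1, 2 and 4. Neither sex passed the negative controls for this gene on any array. It was 1 of 41 members tested in this way, where chance marks about 1 in 20.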

How the results depend on the processing

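Members called, 0 in each direction, stayed at 0 under most alternatives, with at most 9 members at an unadjusted p under 0.05 in the settings without calls. Array weights gave 2 in drone and 3 in worker: AmCyp303A1 and AmCyp006BC1, and AmCyp004G11, AmCyp006AS13 and AmCyp335C1. Array weights also raised the calls over all genes, to 28 in drone and 36 in worker from 14 and 23. A dye coefficient gave 2 in drone, AmCyp006AS03 and AmCyp303A1, beside 20 of all genes in drone and 30 in worker. Slide 7 as a fixed term, added after seeing the data, gave 1 in drone, AmCyp006AS03. That fit called 12 of all genes in drone and 19 in worker. Leaving out dim genes gave 1 in worker, AmCyp335C1, among 14 members tested. Over all genes tested there, 18 were called in drone and 22 in worker. Leaving out 1 array gave 0 in drone and 0 to 2 in worker, the 2 being AmCyp004G11 and AmCyp018A1 without array 4. Without array 4, 14 of all genes were called in drone and 29 in worker. Over the settings with label-field dyes, 7 members passed at least once, 34 never, and 23 kept their sign throughout. Over these settings the lowest and highest adjusted p were 0.00946 and 0.998 for AmCyp004G11 and 0.0234 and 0.903 for AmCyp006AS03.

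The 30 members with a narrow interval became 17 under plain background subtraction, 13 under median centring and 0 under housekeeping centring. Their number was 8 without normalization, 15 when centred on genes that are not odorant receptors and 24 to 31 without 1 array. With dim genes left out only 14 members were tested, and 10 of them had a narrow interval. That count is therefore not comparable with the 30. The members' median of 0.08 became 0.19 under plain subtraction, 0.18 under median centring, -0.15 under housekeeping centring (where the median of all genes was -0.25), -0.0054 without normalization, 0.023 when centred on other than odorant receptors, 0.0065 with print block medians removed, 0.15 in the authors' table, 0.15 with dim genes left out and -0.084 with the protocol dyes, and 0.05 to 0.07 without 1 array. With all negative controls, 3 members were detected in drone and 1 in worker, in place of 12 and 14. The dye coefficient marked 9 members without normalization, 6 when centred on other than odorant receptors and 1 without saturated spots. How many of all genes it marked in these settings was not counted, so these numbers say nothing particular to the members. The cause of these shifts was not tested. Slide as a random block could not be estimated from 4 arrays on 3 slides and was not run. The fit is itself paired by sex, because it takes each array's ratio as a pair of pools. That pairing does not account for arrays 3 and 4 lying on the same slide. The standard errors of the main fit treat the 4 arrays as independent.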
